A study of Mus musculus with 45 samples.

Results

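The 8 troponin genes of mouse striated muscle, Tnnt1, Tnnt2, Tnnt3, Tnni1, Tnni2, Tnni3, Tnnc1 and Tnnc2, were described across a bulk RNA-seq series of 45 libraries in 15 groups of 3. They were chosen by gene family, and the estimated reads and the TPM (a length-scaled level that sums to the same total in each library) of each gene's transcripts were summed. They are 8 of 35675 genes in the tables, and all 8 were among the 17325 genes that passed the filter on low counts. Every group carried the genotype written Tg:Pax7-nGFP/C57BL6;DBA2, in which nuclear GFP reports on Pax7, a regulator of muscle stem cells. Mouse embryonic fibroblasts (MEFs) with a doxycycline-inducible MyoD, a transcription factor that drives muscle genes, were profiled untreated. They were also profiled after 2, 4, 6, 8 and 10 days of doxycycline alone, for which the labels give the cell type myotubes, and after the same days of doxycycline with F/R/C, a treatment with small molecules, for which the labels give muscle fibers with progenitor cells. Bulk induced myogenic progenitor cells (iMPCs) were kept in F/R/C medium after 13 days of doxycycline with F/R/C, and are described as established clones that no longer need doxycycline. The remaining groups were Pax7-GFP+ iMPCs obtained by sorting, primary myoblasts from skeletal muscle in bulk, and sorted Pax7-GFP+ myoblasts. MyoD was overexpressed from a transgene, and the labels give neither ages nor the number of clones. They do not say whether replicates came from separate cultures or animals, so p-values measure the spread between these libraries, which may be technical.

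Troponin is the calcium switch of the thin filament. Troponin C binds calcium, troponin I holds back the interaction of actin with myosin, and troponin T anchors the complex to tropomyosin. Each subunit has separate genes for fast and slow skeletal fibres, and the heart uses its own T and I genes together with the slow C gene. Developing skeletal muscle also uses the cardiac T gene, and the pre-mRNAs of troponin T are spliced in many ways at the N-terminal region and, in fast troponin T, at a pair of mutually exclusive exons near the C terminus.

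In the mouse genome (GRCm38), 6 of the genes lie as pairs of a troponin I and a troponin T gene. Tnni1 (slow I, ENSMUSG00000026418.16, chromosome 1, 135779434 to 135810989, plus strand) and Tnnt2 (cardiac T, ENSMUSG00000026414.13, 135836354 to 135852260, plus strand) are 25364 bases apart. Tnnt1 (slow T, ENSMUSG00000064179.13, chromosome 7, 4504570 to 4516382, minus strand) and Tnni3 (cardiac I, ENSMUSG00000035458.15, 4518305 to 4524229, minus strand) are 1922 bases apart. Tnni2 (fast I, ENSMUSG00000031097.15, chromosome 7, 142441808 to 142444410, plus strand) and Tnnt3 (fast T, ENSMUSG00000061723.18, 142498836 to 142516009, plus strand) are 54425 bases apart. The troponin C genes stand alone: Tnnc1 (slow and cardiac C, ENSMUSG00000091898.8) on chromosome 14 at 31208312 to 31211729, plus strand, and Tnnc2 (fast C, ENSMUSG00000017300.9) on chromosome 2 at 164777161 to 164779967, minus strand.

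The alternative coding exons of troponin T are shown because the results on transcript usage concern them. Capitals mark the exon of 33 bases in Tnnt1 (chr7:4513581-4513613, minus strand), the exon of 39 bases in Tnnt3 (chr7:142507750-142507788, plus strand) and the exon of 18 bases in Tnnt3 (chr7:142502740-142502757, plus strand), each with 12 bases of the neighbouring exons in lower case, 5′ to 3′, from Tnnt1-201 and Tnnt3-202 of GENCODE M21.
Tnnt1 33-base exon: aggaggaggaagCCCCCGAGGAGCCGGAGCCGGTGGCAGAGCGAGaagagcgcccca
Tnnt3 39-base exon: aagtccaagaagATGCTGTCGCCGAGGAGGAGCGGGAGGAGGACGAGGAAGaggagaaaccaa
Tnnt3 18-base exon: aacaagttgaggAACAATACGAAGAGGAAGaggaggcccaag
The mutually exclusive exons of Tnnt3 are both 41 bases long, the first at chr7:142513665-142513705 and the second at chr7:142514326-142514366, and here capitals mark the 23 of 41 positions at which they differ (43.9% identical).
Tnnt3 first 41-base exon: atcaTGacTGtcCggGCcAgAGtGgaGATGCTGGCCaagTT
Tnnt3 second 41-base exon: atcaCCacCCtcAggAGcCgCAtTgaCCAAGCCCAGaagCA

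Promoter windows were shown for 4 genes. They were 1 each with a high and early level (Tnnt2), the highest level (Tnnc1), a level lower on day 2 than on day 4 (Tnnc2) and hardly any reads (Tnni3). Each is the 250 bases upstream of the start in the RefSeq table for GRCm38.p6, 5′ to 3′ on the gene's strand. Capitals mark matches on either strand to CANNTG (the E-box that MyoD and its relatives bind), of which CAGCTG is the form contained in it, and to CATTCC (the MCAT element).
Tnnt2 chr1:135836084-135836333 (plus strand): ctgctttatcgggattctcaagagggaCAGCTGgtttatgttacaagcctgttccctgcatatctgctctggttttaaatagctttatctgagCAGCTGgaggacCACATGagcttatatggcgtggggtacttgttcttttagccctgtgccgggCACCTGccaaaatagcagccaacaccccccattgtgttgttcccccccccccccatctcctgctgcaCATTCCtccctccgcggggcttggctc
Tnnc1 chr14:31208062-31208311 (plus strand): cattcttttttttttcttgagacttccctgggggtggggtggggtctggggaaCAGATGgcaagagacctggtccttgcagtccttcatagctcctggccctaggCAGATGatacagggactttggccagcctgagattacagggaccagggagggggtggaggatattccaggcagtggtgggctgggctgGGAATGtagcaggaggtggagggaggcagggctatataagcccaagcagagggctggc
Tnnc2 chr2:164779735-164779984 (minus strand): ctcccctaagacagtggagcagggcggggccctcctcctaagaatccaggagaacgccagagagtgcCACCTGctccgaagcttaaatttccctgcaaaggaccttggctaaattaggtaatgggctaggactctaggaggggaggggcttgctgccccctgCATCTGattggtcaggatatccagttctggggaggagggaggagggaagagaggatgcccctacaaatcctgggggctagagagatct
Tnni3 chr7:4522529-4522778 (minus strand): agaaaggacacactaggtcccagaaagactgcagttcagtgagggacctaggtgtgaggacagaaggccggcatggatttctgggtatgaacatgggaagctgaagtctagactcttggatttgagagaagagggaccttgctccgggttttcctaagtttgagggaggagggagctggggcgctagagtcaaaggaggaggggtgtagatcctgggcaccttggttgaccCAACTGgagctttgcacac
The table held 8 windows for 6 of the 8 genes, and windows of Tnnt3 and Tnni2 were not in it. In windows of 300 bases (250 upstream and 50 downstream), the first Tnnt2 window held 5 CANNTG matches, 2 of them CAGCTG, and 1 CATTCC match. The windows of Tnni1 held 4 and 2 CANNTG matches, with 1 CAGCTG in each, and those of Tnnt1, Tnnc1, Tnnc2 and the second Tnnt2 start held 2 CANNTG matches each, with 1 CATTCC in that of Tnnc1. The Tnni3 window held 1 CANNTG match. All 8 windows held CANNTG, as did 72.3% of all 32851 promoters in the table. CAGCTG was found in 16.3% of them, CATTCC in 14.7% and the MEF2 motif, which no troponin window held, in 3.19%. A match is only a run of letters and shows no binding.

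Totals ran from 15.6 to 36.3 M estimated reads per library, with a median of 22.1 M, and bulk iMPCs (33.2 to 36.3 M) and bulk myoblast replicate 2 were the 4 deepest. Marker genes other than troponins were summed to check the labels, in CPM (read counts scaled to library size). A fibroblast list of 12 genes summed to 21978 CPM in MEFs, and a list of 10 differentiated muscle genes to 99.2 CPM (range 54.6 to 164) there against 19525 CPM (range 9369 to 33794) after 10 days of MyoD alone. The fibroblast sum lay between 12634 and 33394 CPM in every library of MyoD alone and between 1448 and 7369 CPM in every library with F/R/C, and its part in the troponin values was not tested. Members of the list differed in direction: in the average over days 4 of 12 were called higher with F/R/C (the highest Lum, at 5.50 ± 0.72) and 3 lower (the lowest Fn1, at -3.69 ± 0.34), with a median of 0.42. A list of 10 progenitor genes summed to 266 CPM in MEFs, 1678 in bulk iMPCs, 1955 in Pax7+ iMPCs and 3110.0 in Pax7+ myoblasts. Smooth muscle markers (7 genes) summed to 3688 CPM in MEFs and 633 CPM in bulk iMPCs. All cultures were bulk, so fewer muscle cells and less troponin mRNA per cell cannot be told apart. Libraries stood apart in 3 groups. MEF replicate 1 held 36 to 210 reads of each troponin gene where the other MEF libraries held 1 to 41, bulk myoblast replicate 3 had far lower skeletal troponin levels than the other bulk myoblasts, and Pax7+ myoblast replicate 3 had higher ones than the other Pax7+ myoblasts. The 6 sorted libraries were quantified with another fragment setting than the others, and its effect cannot be told apart from that of sorting.

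**Figure D1:**
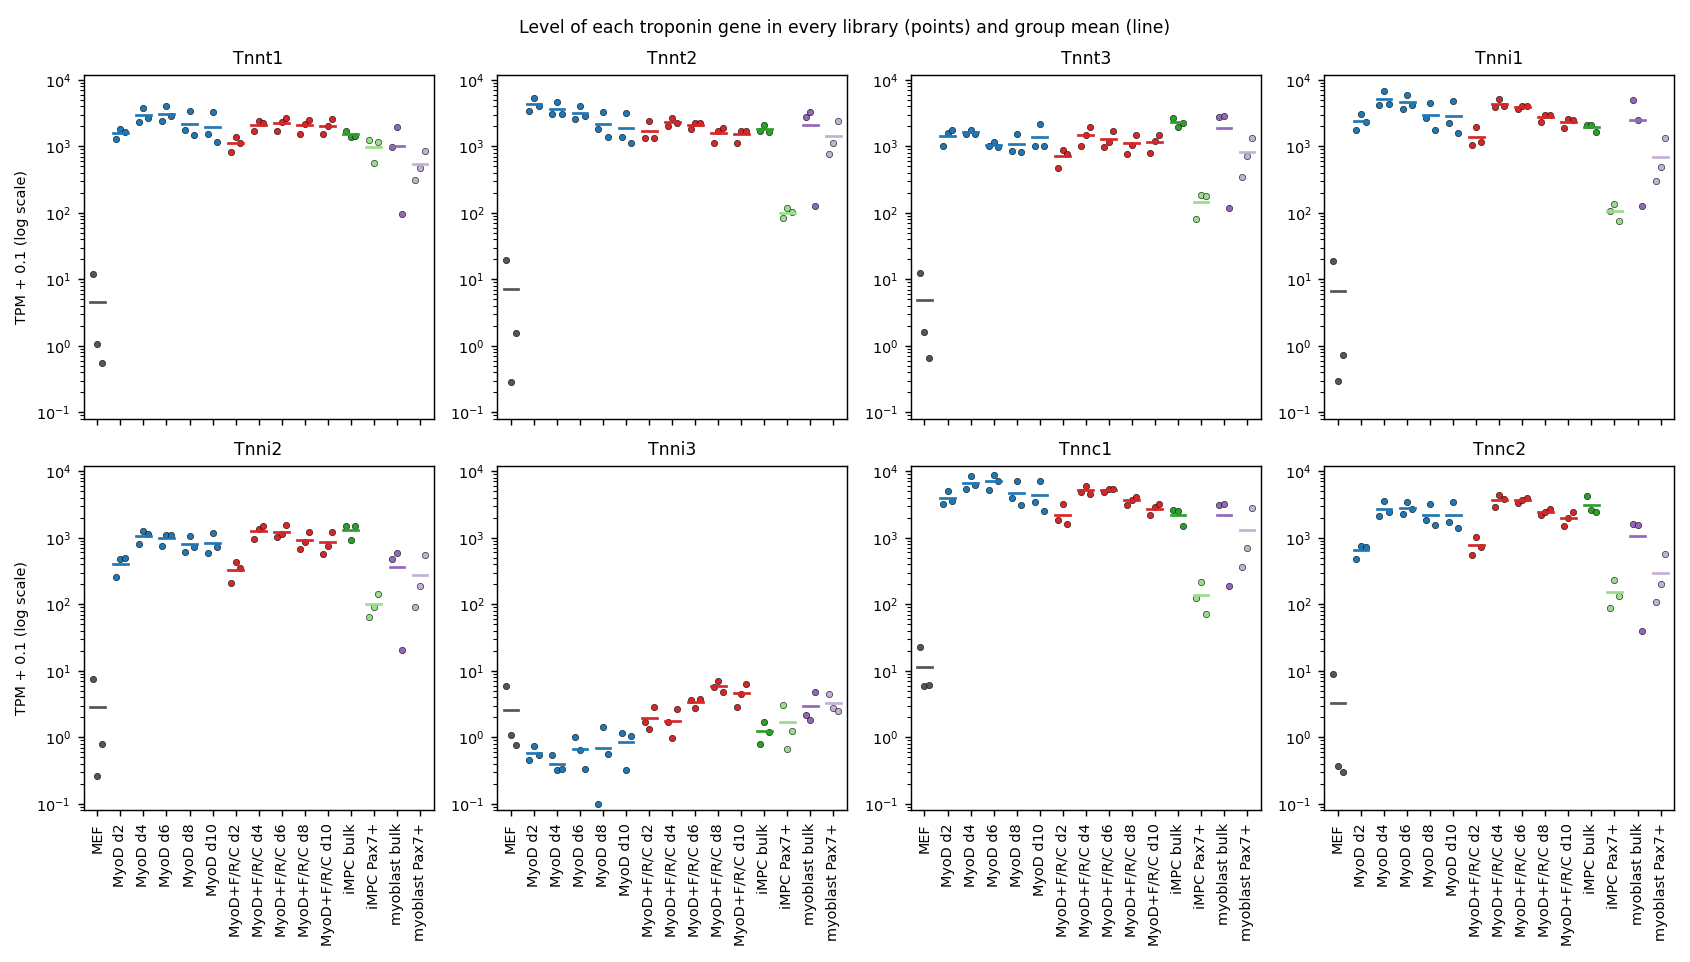
Level of each troponin gene in each library, in TPM on a log scale, with 1 panel per gene and the 15 groups along the horizontal axis; points are libraries and lines are group means. In 7 of the 8 genes the MEF libraries lie below all other groups, while Tnni3 stays below 10 TPM in every library.

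Among the troponin T genes, slow Tnnt1 was listed at 12.2, 0.979 and 0.452 TPM in MEF replicates 1, 2 and 3. With MyoD alone its level was 1591 ± 271 TPM on day 2 (mean ± SD, n = 3, as for all group levels here), 2933 ± 793 on day 4, 3057 ± 842 on day 6, 2202 ± 1012 on day 8 and 1976 ± 1128 on day 10. The F/R/C arm had 1107 ± 265, 2126 ± 394, 2224 ± 502, 2058 ± 510.2 and 2028 ± 521 TPM on the same days. Thus Tnnt1 was already high on day 2 in both arms, and its group means were highest on days 4 and 6 of MyoD alone. Bulk iMPCs had 1517 ± 173 TPM, Pax7+ iMPCs 984 ± 378, bulk myoblasts 1023 ± 941 and Pax7+ myoblasts 548 ± 281. When the 15 groups were ordered by mean level, 12 of the 14 neighbouring pairs overlapped in their libraries. The pairs that did not were bulk iMPCs above F/R/C on day 2, and Pax7+ myoblasts above MEFs.

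Tnnt2, the cardiac and embryonic troponin T, had 19.2, 0.184 and 1.48 TPM in the 3 MEF libraries and the highest group mean of the series on day 2 of MyoD alone, 4258 ± 1058 TPM. It stood at 3592 ± 934 TPM on day 4, 3165 ± 788 on day 6, 2165 ± 1006 on day 8 and 1888 ± 1109 on day 10. The means with F/R/C were 1678 ± 609, 2303 ± 369, 2098 ± 236, 1563 ± 396 and 1513 ± 350.1 TPM. On day 2 all 3 libraries of MyoD alone (3342, 5416 and 4016 TPM) lay above the 3 libraries with F/R/C (1340.3, 2382 and 1312 TPM). Tnnt2 was at 1819.5 ± 213 TPM in bulk iMPCs, 101 ± 17.7 in Pax7+ iMPCs, 2069.6 ± 1707 in bulk myoblasts and 1419 ± 839 in Pax7+ myoblasts. Only the steps down to Pax7+ iMPCs and from there to MEFs separated neighbouring groups without overlap, among 14 such steps.

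Fast Tnnt3 had 12.2, 1.497 and 0.5605 TPM in MEFs. With MyoD alone its means were 1449 ± 386, 1624 ± 142, 1053 ± 103, 1066 ± 404 and 1395 ± 654 TPM on days 2, 4, 6, 8 and 10, and with F/R/C they were 710.4 ± 218, 1497 ± 472, 1274 ± 369.9, 1106 ± 361 and 1159 ± 333 TPM. Its highest group mean was in bulk iMPCs at 2296 ± 377 TPM, with libraries at 2684, 1929.6 and 2274 TPM. Bulk myoblasts were split, with 2784, 2814 and 119 TPM in replicates 1, 2 and 3. Pax7+ myoblasts had 811 ± 509 TPM and Pax7+ iMPCs 148 ± 58.4 TPM. Here too, 12 of 14 neighbouring groups overlapped, and the exceptions were the steps on either side of Pax7+ iMPCs.

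Of the inhibitory subunits, slow Tnni1 had the higher level in most groups. It was listed at 19.1, 0.194 and 0.635 TPM in MEFs and, with MyoD alone, at 2397 ± 683, 5128 ± 1511, 4627 ± 1222, 2983 ± 1427 and 2855 ± 1664 TPM on days 2 to 10. In the F/R/C arm it was at 1387 ± 502, 4325 ± 683, 3950.2 ± 229, 2732 ± 378 and 2319 ± 369 TPM. Day 4 was thus the highest day of Tnni1 in both arms. Bulk iMPCs had 1961 ± 264 TPM, Pax7+ iMPCs 106 ± 30.9, Pax7+ myoblasts 702 ± 536, and the bulk myoblast libraries 4941, 2510.1 and 125 TPM. In the ordered means, 12 of 14 neighbours overlapped, all but those on either side of Pax7+ iMPCs.

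Fast Tnni2 was lowest in MEFs (7.47, 0.163 and 0.687 TPM) and still low on day 2. Its means with MyoD alone were 409 ± 133, 1073 ± 230.0, 985 ± 195, 801 ± 228 and 827 ± 298 TPM, while the F/R/C arm had 329 ± 109.9, 1256 ± 276, 1235 ± 267, 930.1 ± 278 and 852 ± 347 TPM. In both arms the day 2 libraries lay below every library of day 4. Bulk iMPCs had the highest mean, 1312 ± 331 TPM, and the libraries were at 1487, 930.3 and 1519 TPM. Bulk myoblasts were lower, at 471, 579.6 and 20.8 TPM, and Pax7+ myoblasts (273 ± 237 TPM) and Pax7+ iMPCs (99.3 ± 40.4 TPM) lower still in their means. The 2 of 14 neighbouring steps without overlap were day 8 above day 2 of MyoD alone, and Pax7+ iMPCs above MEFs.

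Cardiac Tnni3 was near the floor of detection throughout and never exceeded 59 reads or 6.94 TPM in a library. With MyoD alone, replicates 1, 2 and 3 held 2, 2 and 2 reads on day 2, 2, 2 and 1 on day 4, 3, 2 and 1 on day 6, 0, 5 and 3 on day 8 and 5, 2 and 6 on day 10. The F/R/C libraries held 8, 8 and 20, 14, 5 and 13, 17, 19 and 33, 25, 32 and 49 and 21, 20 and 59 reads. On days 2, 4, 6, 8 and 10 the lowest F/R/C library held more reads than the highest library of MyoD alone. In TPM, the group means were 0.301 ± 0.126 on day 4 of MyoD alone, the lowest of the series, and 5.75 ± 1.16 on day 8 with F/R/C, the highest. MEFs held 36, 5 and 4 reads, bulk iMPCs 9, 11 and 16, Pax7+ iMPCs 15, 6 and 11, bulk myoblasts 10, 21 and 38 and Pax7+ myoblasts 28, 18 and 21. All 14 neighbouring groups in the order of Tnni3 means overlapped.

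For the calcium-binding subunit, slow and cardiac Tnnc1 reached the highest level of any troponin gene. MEF libraries held 22.4, 5.85 and 5.995 TPM, and MyoD alone gave 3935 ± 933, 6623 ± 1532, 7035 ± 1751, 4694 ± 2048 and 4375 ± 2464 TPM on days 2 to 10. The F/R/C arm followed with 2207 ± 859, 5130.1 ± 817, 5205 ± 282, 3646 ± 509 and 2745 ± 525 TPM. Its highest mean was that of day 6 with MyoD alone. Bulk iMPCs had 2201 ± 596 TPM, Pax7+ iMPCs 138 ± 74.7 and Pax7+ myoblasts 1291 ± 1333, and the bulk myoblasts had 3092, 3207 and 189 TPM. Neighbouring groups overlapped in 12 of 14 steps, and the others flanked Pax7+ iMPCs. In all 45 libraries some Tnnc1 reads were divided with another gene, as were those of Tnnt2 in 41, Tnnt1 and Tnni1 in 32 each, Tnnc2 in 25, Tnnt3 in 6, Tnni2 in 1 and Tnni3 in 0 libraries.

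Fast Tnnc2 was at 8.92, 0.272 and 0.203 TPM in MEFs. The means with MyoD alone were 655 ± 159, 2692 ± 725, 2789.7 ± 606, 2187 ± 886 and 2198 ± 1109 TPM, and those with F/R/C 765 ± 230.2, 3684 ± 707, 3643 ± 364, 2469 ± 276 and 1978 ± 478 TPM. Between days 2 and 4 its libraries did not overlap in either arm. Bulk iMPCs had 3096 ± 989 TPM, Pax7+ iMPCs 151 ± 75.6, Pax7+ myoblasts 292 ± 239, and bulk myoblasts 1584, 1572 and 39.6 TPM. Only Pax7+ iMPCs and MEFs, of 14 neighbouring steps, did not overlap.

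The first question was how each condition differed from the starting fibroblasts. In edgeR's quasi-likelihood test (calls needed a Benjamini-Hochberg adjusted p under 0.05 together with a log2 change of 1 or more in either direction), the 7 genes other than Tnni3 were called higher than in MEFs in all 5 comparisons made. On day 2 of MyoD alone their log2 fold changes ran from 7.55 ± 0.94 (SE) for Tnni2 to 9.53 ± 1.06 for Tnnt2, with 8 of 8 members called (7 higher, Tnni3 lower) where 22.4% of all genes tested were called. On day 10 of MyoD alone they ran from 8.21 ± 1.01 for Tnnt2 to 9.51 ± 1.08 for Tnnc2, again with 8 called against 18.9% of all genes. With all MEF libraries in the fit, cardiac Tnnt2 thus had the highest fitted fold on day 2 and the lowest of the 7 on day 10. With F/R/C, 7 of 8 were called on day 2 (from 7.16 ± 0.92 for Tnni2 to 8.11 ± 1.01 for Tnnt2, with 20.4% of all genes called). On day 10 with F/R/C 7 were called as well (from 7.93 ± 1.00 for Tnnt2 to 9.31 ± 1.08 for Tnnc2, with 34.8% of all genes called). In bulk iMPCs 7 of 8 were called, from 7.70 ± 0.88 for Tnnc1 to 9.92 ± 1.10 for Tnnc2, where 35.5% of all genes were called. These comparisons share the MEF libraries, and the size of the folds moved with MEF replicate 1. For Tnnt1 the ratio of scaled reads on day 10 of MyoD alone to those in MEFs was 409 (95% counting interval 341 to 495) over all libraries. Without MEF replicate 1, which left 7 MEF reads, it was 4246 (95% counting interval 2061 to 10562). Such intervals cover counting error only. The order of the genes moved as well. Without MEF replicate 1, the ratio on day 2 of MyoD alone was 9920 for Tnni1 and 8187 for Tnnt2. On day 10 it was 747 for Tnnc1, 2717 for Tnnt3 and 3134 for Tnnt2, which was thus not the lowest.

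Against MEFs, Tnni3 was called lower with MyoD alone, by -2.75 ± 0.74 (adjusted p = 0.0043) on day 2 and -1.92 ± 0.68 (adjusted p = 0.031) on day 10 in edgeR's test. These calls rested on MEF replicate 1, which held 36 of the 45 MEF reads. Without it the log2 fold changes were -1.25 (adjusted p = 0.23) and -0.42 (adjusted p = 0.71), where the alternatives tried gave adjusted p from 0.0018 to 0.23 on day 2 and from 0.013 to 0.71 on day 10. The ratio of scaled reads on day 2 to those in MEFs was 0.133 (95% counting interval 0.0463 to 0.313) from 6 against 45 reads, and 0.413 (95% counting interval 0.121 to 1.299) from 6 against 9 reads without that library. The day 10 call was also lost without replicate 2 (adjusted p = 0.15) or replicate 3 (adjusted p = 0.051) of that day. With F/R/C the value was -0.35 ± 0.62 (adjusted p = 0.7) on day 2 and 0.89 ± 0.60 (adjusted p = 0.22) on day 10, and in bulk iMPCs -1.08 ± 0.62 (adjusted p = 0.14), none of them called.

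The next question was what F/R/C added to MyoD on each day. The only member of the 8 called was Tnni3, on all 5 days and in their average, and it was higher with F/R/C each time. Its log2 fold change stood at 2.40 ± 0.75 (adjusted p = 0.041) on day 2, 2.55 ± 0.77 (adjusted p = 0.015) on day 4 and 3.40 ± 0.74 (adjusted p = 0.001) on day 6. On day 8 it was 3.49 ± 0.71 (adjusted p = 0.0004), on day 10 2.80 ± 0.67 (adjusted p = 0.0013), and in the average of the days 2.93 ± 0.32 (adjusted p = 3.3e-09), by edgeR. All 15 F/R/C libraries lay above the libraries of MyoD alone of the same day, at very low levels in both arms. The ratio of scaled reads was 5.52 (95% counting interval 2.31 to 16.04) on day 2 from 36 against 6 reads, and 12.1 (95% counting interval 5.9 to 28.6) on day 8 from 106 against 8 reads. The share of all genes called was 4.93% on day 2, 13.2% on day 4, 15.4% on day 6, 18.7% on day 8, 23.3% on day 10 and 22.1% in the average, so the share of members called, 1 of 8, lay above it on day 2 and below it on the later days and in the average. The day 2 call of Tnni3 was lost without any 1 of the MyoD libraries of that day, without F/R/C replicate 3 (log2 fold change 1.82, adjusted p = 0.26) or without the filter on low counts (2.41, adjusted p = 0.066), where the alternatives spanned adjusted p from 0.031 to 0.26. Its day 4 call was lost without replicate 3 of MyoD alone (2.35, adjusted p = 0.059, over alternatives from 0.013 to 0.059). In fits of only the groups of day 2 or day 4, Tnni3 did not pass the filter and had no value.

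The skeletal and shared members were not called between the arms on any day. Averaged over days, Tnnt2 had a log2 fold change of -0.70 ± 0.33 (adjusted p = 0.065), Tnnc1 of -0.57 ± 0.29 (adjusted p = 0.088) and Tnni1 of -0.39 ± 0.36 (adjusted p = 0.36). The fast genes lay closer to 0, at 0.17 ± 0.33 (adjusted p = 0.67) for Tnnc2, 0.08 ± 0.30 (adjusted p = 0.84) for Tnni2 and -0.29 ± 0.31 (adjusted p = 0.44) for Tnnt3, while slow Tnnt1 was at -0.38 ± 0.30 (adjusted p = 0.28). The most negative value of a single day was that of Tnnt2 on day 2, -1.43 ± 0.74 (adjusted p = 0.26), followed by Tnnt3 on the same day at -1.14 ± 0.71 (adjusted p = 0.36). When only the groups of day 2 were fitted, Tnnt2 (-1.40, adjusted p = 0.022) and Tnnt3 (-1.11, adjusted p = 0.043) were called lower with F/R/C. The median of the 8 members in the average over days was -0.33, and that of all genes tested was -0.03.

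**Figure D2:**
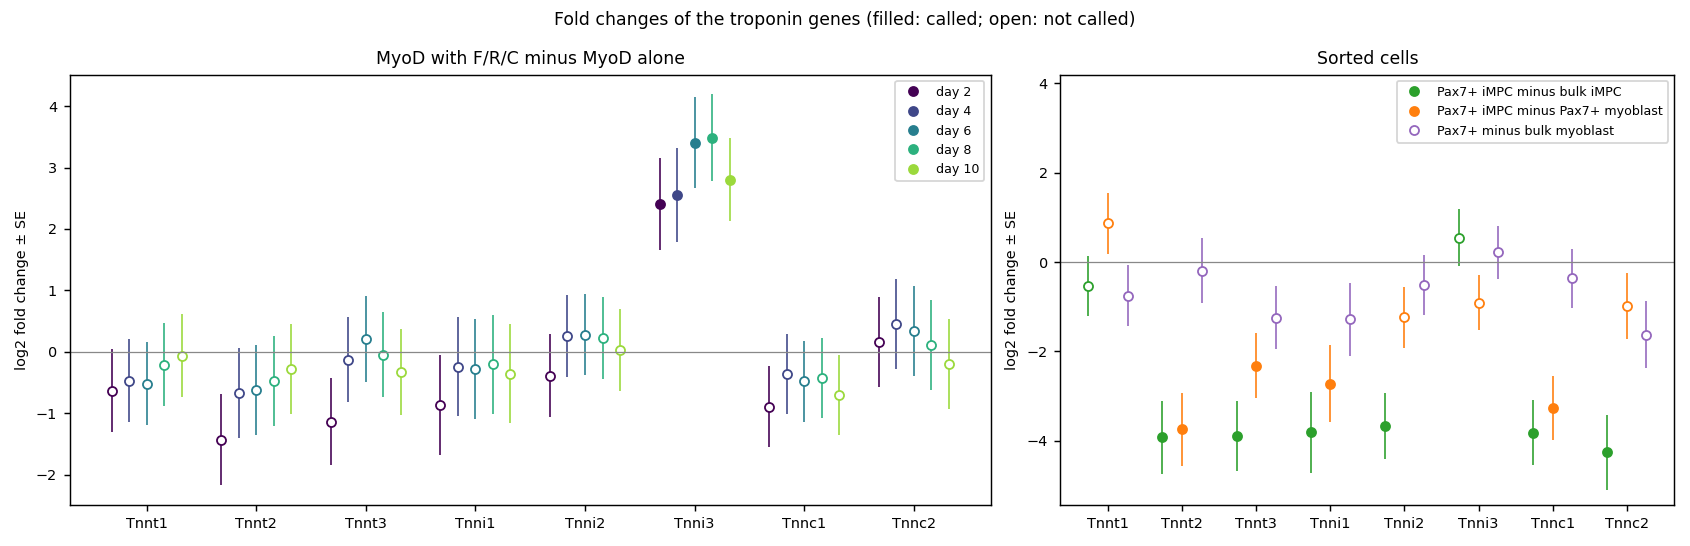
Fitted log2 fold change of each troponin gene, F/R/C minus MyoD alone by day (left) and for the comparisons with sorted cells (right); bars show 1 standard error, filled points were called by edgeR and open points were not. Tnni3 is the only filled gene on the left, from 2.40 on day 2 to 3.49 on day 8, and on the right the 6 genes called in Pax7+ iMPCs against bulk iMPCs lie between -4.26 and -3.67.

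Time within an arm was compared between day 10 and day 2. With MyoD alone 0 of 8 members were called (6.26% of all genes were), with 1 at an unadjusted p under 0.05 and 0 called by DESeq2. The values were 1.67 ± 0.75 (adjusted p = 0.15) for Tnnc2, 0.94 ± 0.67 (adjusted p = 0.4) for Tnni2 and -1.32 ± 0.74 (adjusted p = 0.27) for Tnnt2 in edgeR's test. Tnnc2 libraries of day 2 (471, 759 and 733 TPM) all lay below those of day 10 (1726, 3464 and 1403 TPM), and Tnnt2 libraries of day 2 (3342, 5416 and 4016 TPM) all lay above those of day 10 (1385, 3160.1 and 1119.9 TPM). With F/R/C 0 of 8 were called (16.0% of all genes were), 0 had an unadjusted p under 0.05 and DESeq2 called 0. Tnni2 was at 1.36 ± 0.68 (adjusted p = 0.14) and Tnnc2 at 1.31 ± 0.74 (adjusted p = 0.19), and both were called when only these groups were fitted (1.44 with adjusted p = 0.025, and 1.40 with adjusted p = 0.014). The difference between the day 10 and day 2 effects of F/R/C was called in 0 of 8 members (6.01% of all genes), with 0 at an unadjusted p under 0.05 and 0 by DESeq2. The highest value was that of Tnnt2, 1.14 ± 1.03 (adjusted p = 0.52).

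**Figure D3:**
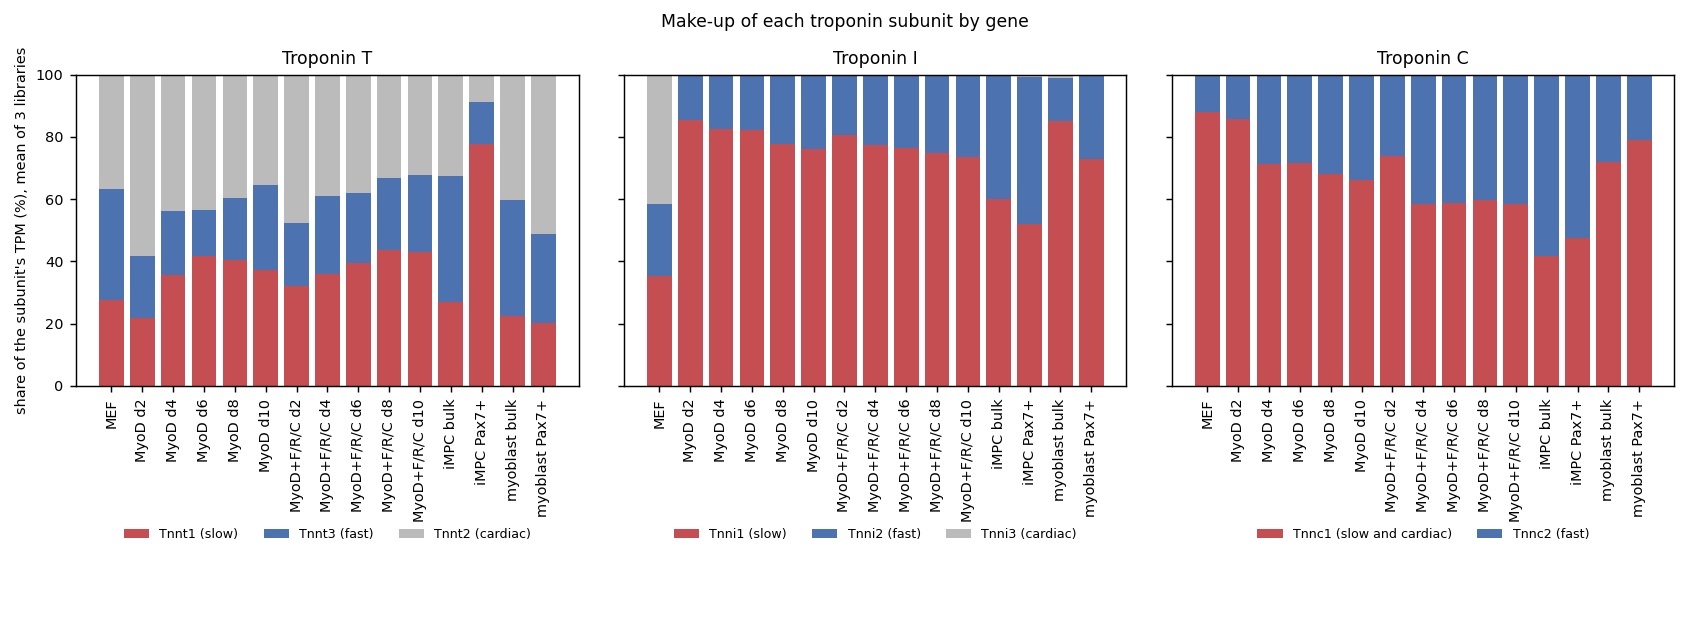
Mean share of each gene in the TPM of its subunit (troponin T, I and C) in the 15 groups, as stacked bars that add to 100%. Tnnt1 fills 77.8% of the troponin T bar in Pax7+ iMPCs, and the Tnnc2 part of the troponin C bar is taller with F/R/C than with MyoD alone on every day.

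Because TPM is scaled per transcript length, the members can be set against each other. All 8 together made up 1.47 ± 0.341% of TPM on day 2 of MyoD alone, 2.37 ± 0.5799% on day 4 and 1.55 ± 0.839% on day 10. The shares with F/R/C were 0.819 ± 0.266% on day 2, 2.03 ± 0.309% on day 4 and 1.26 ± 0.281% on day 10. They were 1.42 ± 0.2101% in bulk iMPCs and 0.173 ± 0.0168% in Pax7+ iMPCs. Day 4 was the highest day in both arms. Among the days of each arm, troponin T exceeded troponin I most on day 2, with a ratio of 2.63 ± 0.175 for MyoD alone and 2.06 ± 0.113 with F/R/C. On day 4 the ratio was 1.32 ± 0.0578 and 1.06 ± 0.108, and in bulk iMPCs 1.72 ± 0.0379. Pax7+ iMPCs had the widest ratio, 6.14 ± 2.26, and there Tnnt1 made up most of troponin T. The ratio of troponin C to troponin I moved less, from 1.66 ± 0.161 on day 2 to 1.77 ± 0.0392 on day 10 of MyoD alone. With F/R/C it went from 1.73 ± 0.159 to 1.49 ± 0.030 between the same days. Troponin C to troponin T went from 0.629 ± 0.0395 on day 2 to 1.25 ± 0.0525 on day 10 of MyoD alone. With F/R/C that ratio was 0.845 ± 0.103 on day 2, 1.61 ± 0.203 on day 6 and 1.01 ± 0.0523 on day 10.

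Within the T subunit, cardiac Tnnt2 held 58.2 ± 3.73% of TPM on day 2 of MyoD alone and, by day 10, 35.4 ± 1.43%, against 47.7 ± 6.05% and 32.3 ± 2.44% with F/R/C. Slow Tnnt1 went from 21.96 ± 1.24% to 37.2 ± 2.1% with MyoD alone and from 32 ± 2.94% to 43.2 ± 1.97% with F/R/C. In bulk iMPCs fast Tnnt3 had the highest mean share of the T genes, 40.6 ± 4.24%. In bulk iMPC replicate 2, however, Tnnt2 was higher, at 2063 TPM against 1929.6 TPM for Tnnt3. Among the I genes, fast Tnni2 held 14.5 ± 2.73% on day 2 and 24.03 ± 6.62% on day 10 of MyoD alone. With F/R/C it held 19.3 ± 3.57% and 26.2 ± 6.04%, and 39.9 ± 8.77% in bulk iMPCs. Fast Tnnc2 held 14.3 ± 2.27% of troponin C on day 2 and 33.9 ± 1.45% on day 10 of MyoD alone. In the F/R/C arm it held 26.2 ± 4.41% and 41.7 ± 1.68%, and in bulk iMPCs 58.3 ± 6.08%. Pax7+ iMPCs held 47.3 ± 15.6% Tnni2 and 52.6 ± 11.8% Tnnc2, while fast Tnnt3 held 13.2 ± 7.92% of their troponin T. The fast shares of I and C were thus lowest on day 2 among the days of each arm. In their means these shares were higher in bulk iMPCs and in Pax7+ iMPCs than in either arm.

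The 5 ratios between members were compared between the arms in each library, as log2 of TPM with 0.1 TPM added, by permuting the arm labels within days (two-sided permutation test, 100000 resamples, adjusted over the 5 ratios). Fast to slow troponin C, Tnnc2 to Tnnc1, was -2.77, -2.72 and -2.30 with MyoD alone and -1.72, -1.66 and -1.14 with F/R/C on day 2. On day 10 it was -0.97, -1.05 and -0.87 against -0.52, -0.56 and -0.37. The arms did not overlap on any of the 5 days, and the mean difference was 0.75 (p = 1e-05, the smallest these permutations can give, adjusted permutation p = 1.7e-05), higher in 15 of 15 same-numbered pairs. By day it was 1.09, 0.82, 0.81, 0.53 and 0.48. These permutations, and those for the other ratios and for transcripts below, treat the libraries of the 5 days as independent. In Tnni2 to Tnni1, replicate 3 was the highest on all 5 days in both arms. No label says whether a number marks a series over days. If it does, the 15 pairs are not independent and these p-values are too small.

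Fast to slow troponin I, Tnni2 to Tnni1, was higher with F/R/C by 0.38 (adjusted permutation p = 0.0077, 15 of 15 pairs). The arms overlapped on every day but day 6, where MyoD alone had -2.28, -2.43 and -1.95 and F/R/C -1.85, -1.83 and -1.42. Without replicate 1 of all groups the difference was 0.39 with an adjusted permutation p of 0.062, and without replicate 2 it was 0.34 with 0.075, where the alternatives spanned 7.6e-05 to 0.075. With same-numbered replicates as a block the adjusted p was 7.6e-05. Cardiac to skeletal troponin T, Tnnt2 to the sum of Tnnt1 and Tnnt3, was lower with F/R/C (log2 difference -0.37, adjusted permutation p = 1.7e-05) and was lower in all 15 pairs. On day 2 the values were 0.54, 0.67 and 0.24 with MyoD alone and 0.05, 0.09 and -0.54 with F/R/C, and the arms overlapped on days 4 and 10. Cardiac to skeletal troponin I, Tnni3 to the sum of Tnni1 and Tnni2, was higher with F/R/C by 2.72 (adjusted permutation p = 1.7e-05, 15 of 15 pairs), a value that was 1.64 with 1 TPM added and 3.15 with 0.01 TPM added.

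Fast to slow troponin T, Tnnt3 to Tnnt1, differed by 0.04 on average (adjusted permutation p = 0.72, higher in 8 of 15 pairs). On day 2 the values were -0.35, -0.18 and 0.06 with MyoD alone and -0.83, -0.62 and -0.54 with F/R/C, on day 6 -1.24, -1.77 and -1.51 and -0.80, -0.98 and -0.67, and on day 10 -0.59, -0.60 and -0.16 and -0.91, -0.75 and -0.80. The arms did not overlap on any of these 3 days, F/R/C being lower on days 2 and 10 and higher on day 6, and with 3 libraries a side a permutation p for 1 day is at least 0.1. Over all pairs of days and all 5 ratios, 0 of 50 differences between days in the effect of F/R/C passed the test after adjustment, and 6 had an unadjusted p under 0.05. The lowest p was that of Tnnt3 to Tnnt1 for day 6 minus day 2, a difference of 1.19, and for day 10 minus day 6, a difference of -1.06 (exact permutation p = 0.005 for each, the smallest that 400 assignments can give, adjusted over the 50 p = 0.125). Even at the smallest possible p, a few of the 50 differences could not pass this adjustment. The outcome therefore cannot show whether the effect of F/R/C was the same on all days. In bulk iMPCs the Tnnt3 to Tnnt1 ratio was 0.65, 0.47 and 0.66, above all libraries of both arms. Bulk myoblasts (1.49, 0.51 and 0.30) and Pax7+ myoblasts (0.16, 0.62 and 0.66) lay above those arms too. In Pax7+ iMPCs the ratio was -3.97, -1.59 and -2.67.

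**Figure D4:**
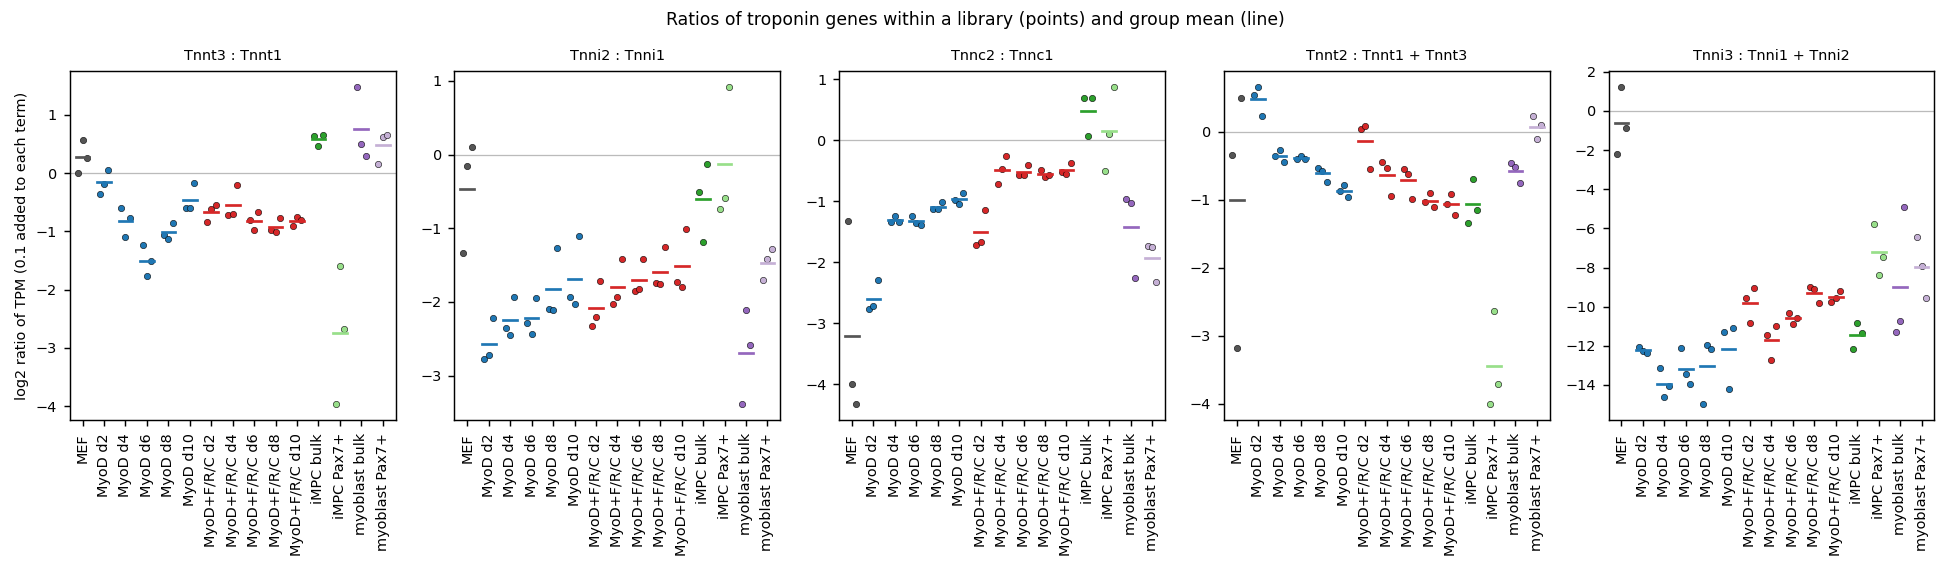
Log2 ratio of fast to slow troponin T, I and C and of cardiac to skeletal troponin T and I in each library (0.1 TPM added to each term), with points for libraries and a line for each group mean. The Tnnc2 to Tnnc1 points with F/R/C lie above those of MyoD alone on all 5 days, while the Tnnt3 to Tnnt1 points cross, with differences of -0.50 on day 2, 0.69 on day 6 and -0.37 on day 10.

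Established bulk iMPCs were compared with the last day of the F/R/C arm and with bulk myoblasts. Against F/R/C on day 10, 1 of 8 members was called (9.57% of all genes were), Tnni3, with -1.97 ± 0.61 (adjusted p = 0.021) by edgeR. Bulk iMPCs held 9, 11 and 16 reads and F/R/C on day 10 21, 20 and 59, a ratio of scaled reads of 0.244 (95% counting interval 0.162 to 0.3604). In TPM all bulk iMPC libraries (0.687, 1.58 and 1.10) lay below those with F/R/C (2.73, 4.34 and 6.32). The call was lost without F/R/C replicate 3 (-1.50, adjusted p = 0.11), bulk iMPC replicate 1 (-1.79, 0.083) or bulk iMPC replicate 2 (-1.94, 0.064), where alternatives spanned adjusted p from 0.0069 to 0.11. Tnnt3 was at 0.88 ± 0.70 (adjusted p = 0.4), Tnnc2 at 0.60 ± 0.73 (adjusted p = 0.61) and Tnnt1 at -0.58 ± 0.68 (adjusted p = 0.58). Every Tnnt3 library of bulk iMPCs (2684, 1930 and 2274 TPM) lay above those with F/R/C on day 10 (807, 1200.1 and 1469 TPM).

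Against bulk myoblasts, fast Tnni2 was the 1 of 8 members called, at 1.91 ± 0.69 (adjusted p = 0.031), where 19.6% of all genes were called. Its bulk iMPC libraries (1487, 930 and 1519 TPM) all lay above the myoblasts (471, 580 and 20.8 TPM). Without myoblast replicate 3, the low library, the log2 fold change was 1.36 with an adjusted p of 0.11. The call was also lost without bulk iMPC replicate 1 (1.82, 0.067) or 3 (1.80, 0.070) and when only these groups were fitted (1.88, 0.24), where alternatives spanned adjusted p from 0.021 to 0.24. Fast Tnnc2 was at 1.65 ± 0.75 (adjusted p = 0.09) and cardiac Tnni3 at -1.24 ± 0.61 (adjusted p = 0.12), neither called. Of 12 fibroblast markers, 11 were called higher in bulk iMPCs and 1, Fn1, lower (median log2 fold change 5.29), while their sum was 3488 CPM (range 2883 to 4666) in bulk iMPCs and 3853 CPM (range 1213 to 7628) in bulk myoblasts. Their part in the troponin values was not tested.

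Pax7-GFP+ iMPCs had lower levels of 6 of the 8 genes than bulk iMPCs. Against bulk iMPCs, Tnnc2 was at -4.26 ± 0.84 (adjusted p = 0.00011), Tnnt2 at -3.93 ± 0.82 (adjusted p = 0.00023) and Tnnt3 at -3.90 ± 0.78 (adjusted p = 0.00014) by edgeR. Tnnc1 (-3.82), Tnni1 (-3.81) and Tnni2 (-3.67) were called lower too, so 6 of 8 were called where 30.3% of all genes were. In each of these 6 genes all sorted libraries lay below all bulk libraries. Slow Tnnt1 was not called, at -0.54 ± 0.68 (adjusted p = 0.53). Its sorted libraries held 1256, 553 and 1143 TPM against 1715, 1396 and 1439 TPM in bulk, which did not overlap either. In Tnnt2 the levels were 82.9, 118 and 101 TPM against 1728, 2063 and 1667 TPM. The difference between Tnnt1 and the other genes in this comparison was not tested. Tnni3 was at 0.55 ± 0.63 (adjusted p = 0.49). The median of the 8 members was -3.82 and that of all genes -0.13, and the differentiated muscle markers summed to 1178 CPM (range 909.6 to 1676) in the sorted cells against 23874 CPM (range 21250.4 to 27577) in bulk. Of 12 fibroblast markers 7 were called lower in the sorted cells and 0 higher (median -3.36), and of 10 progenitor markers 4 were called higher (Pax7, Heyl, Chodl and Calcr) and 1 lower (Sdc4). The part of these in the troponin values was not tested.

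Between the sorted groups, Pax7+ iMPCs against Pax7+ myoblasts, 4 of 8 members were called lower in iMPCs (30% of all genes were called in either direction). They were Tnnt2 at -3.74 ± 0.81 (adjusted p = 0.00033), Tnnc1 at -3.27 ± 0.71 (adjusted p = 0.00033), Tnni1 at -2.73 ± 0.86 (adjusted p = 0.0096) and Tnnt3 at -2.32 ± 0.73 (adjusted p = 0.0096). In Tnnt2 the iMPC libraries held 82.9, 118 and 101 TPM and the myoblasts 777, 1112 and 2368 TPM, without overlap. Without myoblast replicate 3, the high library, Tnnt3 (-1.52, adjusted p = 0.10) and Tnni1 (-1.74, adjusted p = 0.10) were no longer called and Tnnt2 and Tnnc1 were. Tnnt3 was also lost without iMPC replicate 1 (-1.99, adjusted p = 0.053), and over the alternatives its adjusted p ran from 0.0038 to 0.10 and that of Tnni1 from 0.0030 to 0.10. Fast Tnni2 was at -1.24 ± 0.68 (adjusted p = 0.14), Tnnc2 at -0.99 ± 0.74 (adjusted p = 0.28), Tnni3 at -0.91 ± 0.62 (adjusted p = 0.23) and Tnnt1 at 0.87 ± 0.68 (adjusted p = 0.31). Differentiated muscle markers summed to 8005 CPM (range 4208 to 14659) in the sorted myoblasts.

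Sorted against bulk myoblasts gave 0 of 8 calls, where 6.23% of all genes were called, with 1 member at an unadjusted p under 0.05 and 0 called by DESeq2. Tnnc2 was at -1.63 ± 0.75 (adjusted p = 0.16), Tnni1 at -1.28 ± 0.82 (adjusted p = 0.33) and Tnnt3 at -1.25 ± 0.71 (adjusted p = 0.26). Bulk Tnnc2 levels of 1584, 1572 and 39.6 TPM spanned the sorted ones of 109, 205 and 563 TPM. Without bulk replicate 3, Tnnc2 was called at -2.20 (adjusted p = 0.024), and without sorted replicate 3 at -2.65 (adjusted p = 0.044).

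Transcript usage within troponin T was compared next, as the percentage of a gene's TPM. Reads of 100 bases are divided among overlapping transcripts by likelihood, and the error of that assignment is not part of the tests. Of 11 transcripts with a mean share of at least 5%, 8 differed between the arms in the same permutation test, adjusted over the 11. In Tnnt1 these were all 5 tested. Tnnt1-206 (885 bases, without the 33-base exon) was higher with F/R/C by 6.46 percentage points (adjusted permutation p = 0.00052, 12 of 15 pairs) and Tnnt1-209 (665 bases, without it) by 4.47 points (5.5e-05, 15 of 15 pairs). The values for Tnnt1-201 (-3.44 points, adjusted permutation p = 0.00048) and Tnnt1-203 (-3.63 points, 5.5e-05), both with the exon, were lower, as was that for Tnnt1-208 (-5.79 points, 0.0013), which lacks the exon and begins further downstream. Tnnt1-208 had -4.99 points and an adjusted permutation p of 0.062 without replicate 1. In Tnnt3, 3 of 6 transcripts differed: Tnnt3-211, with neither the 18-base nor the 39-base exon, was higher by 4.97 points (adjusted permutation p = 0.0026). Tnnt3-215 (-4.78 points, 0.0098) and Tnnt3-218 (-4.09 points, 0.0076), which hold both exons, were lower. Without replicate 1 of all groups 0 of the 6 Tnnt3 transcripts passed.

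Libraries of high depth stood apart from the other unsorted libraries in transcript usage. Tnnt1-208 made up 48.5, 48.1 and 44.8% of Tnnt1 in bulk iMPCs and 16.7, 49.1 and 12.03% in bulk myoblast replicates 1, 2 and 3. The 4 deepest libraries, bulk iMPCs and bulk myoblast replicate 2, thus held 44.8% to 49.1%, and the other unsorted libraries at most 21.6%. Tnnt1-201 was at most 2.34% in those 4 libraries and at least 10.7% in the other unsorted ones. Tnnt3-206 was between 18.5% and 24.6% in the same 4 and at most 11.2% in the others. The 6 sorted libraries, with 17.5 to 24.2 M reads, held 28.2% to 37.4% of Tnnt1-208 and at most 3.04% of Tnnt1-201. Their share of Tnnt3-206 was at most 4.3e-06%. Depth and group cannot be told apart for bulk iMPCs, and these shares were compared with no test.

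Exon shares summed the transcripts that hold an alternative exon over those that hold both its neighbours or, for the mutually exclusive pair, either exon of the pair. The 4 exons were chosen after transcript values were seen and their shares are sums of the same transcript shares, so they are given as a description, with no test. Averaged over days, each had a lower mean share with F/R/C, though not on every day. The 33-base exon of Tnnt1 had shares of 56.1, 53.1 and 51.3% with MyoD alone and 49.2, 49.4 and 39.8% with F/R/C on day 2, and 57.4, 56.2 and 55.5% and 45.04, 47.2 and 48.4% on day 10. The arms did not overlap on either day, and the mean difference over the 5 days was -5.63 points (higher in 2 of 15 pairs). On days 4 and 6 they overlapped, with 46.8, 57.7 and 56.97% and 52.8, 53.8 and 53.1% on day 4. Bulk iMPCs had 34.1, 34.5 and 31.7% and Pax7+ iMPCs 18.9, 19.8 and 17.6%, below every library of both arms. Pax7+ myoblasts had 26.7, 22.5 and 21.6%. Bulk myoblast replicate 2, among the 4 deepest libraries, had 35.3%, against 53.3% in replicate 1 and 44.99% in replicate 3. That deep myoblast library thus also lay below every library of both arms. For all 4 exons, depth and group cannot be told apart in bulk iMPCs. In the sorted libraries, the fragment setting and sorting cannot be told apart.

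In Tnnt3 the share of the 18-base exon was higher in every library of day 4 than in those of day 2, in both arms. It was at 50.5, 41.6 and 38.99% on day 2 and 77.6, 77.9 and 77.3% on day 8 of MyoD alone, against 39.05, 34.2 and 34.1% and 49.4, 65.1 and 63.9% with F/R/C. The mean difference was -10.8 points (higher in 1 of 15 pairs). Bulk iMPCs had 80.8, 76.7 and 79.4%. The 39-base exon was at 63.3, 62.7 and 58.98% and 47.01, 50.2 and 49.3% on day 2, without overlap, and at 69.6, 62.9 and 71.7% and 70.1, 69.2 and 70.6% on day 10, where the arms overlapped and the mean was higher with F/R/C (70.0% against 68.1%). Its mean difference over the days was -8.68 points (higher in 3 of 15 pairs).

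Of the mutually exclusive exons of Tnnt3, the first 41-base exon was at 1.54, 0.993 and 1.26% on day 2, 18.4, 16.6 and 24.99% on day 6 and 21.1, 22.2 and 39.1% on day 8 of MyoD alone. With F/R/C it was at 1.15, 2.24 and 3.36%, 5.48, 10.4 and 14.7% and 9.54, 12.5 and 25.4%. In both arms all day 8 libraries lay above all day 2 libraries. The arms differed by -6.76 points over the days (higher in 3 of 15 pairs), while on day 2 the mean was higher with F/R/C (2.25% against 1.26%). Bulk iMPCs were low, at 4.83, 5.08 and 4.66%, and so were the other groups outside the 2 arms. Bulk myoblasts had 1.33, 8.59 and 7.24%, Pax7+ iMPCs 8.80, 5.92 and 1.82% and Pax7+ myoblasts 2.63, 1.42 and 0.777%. The transcripts counted held 96.3% to 99.1% of Tnnt1 TPM over 43 libraries, and for the 18-base and 39-base exons 67.2% to 98.4% and for the 41-base exons 66.6% to 97.97% of Tnnt3 TPM over 42 libraries with at least 100 reads.

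**Figure D5:**
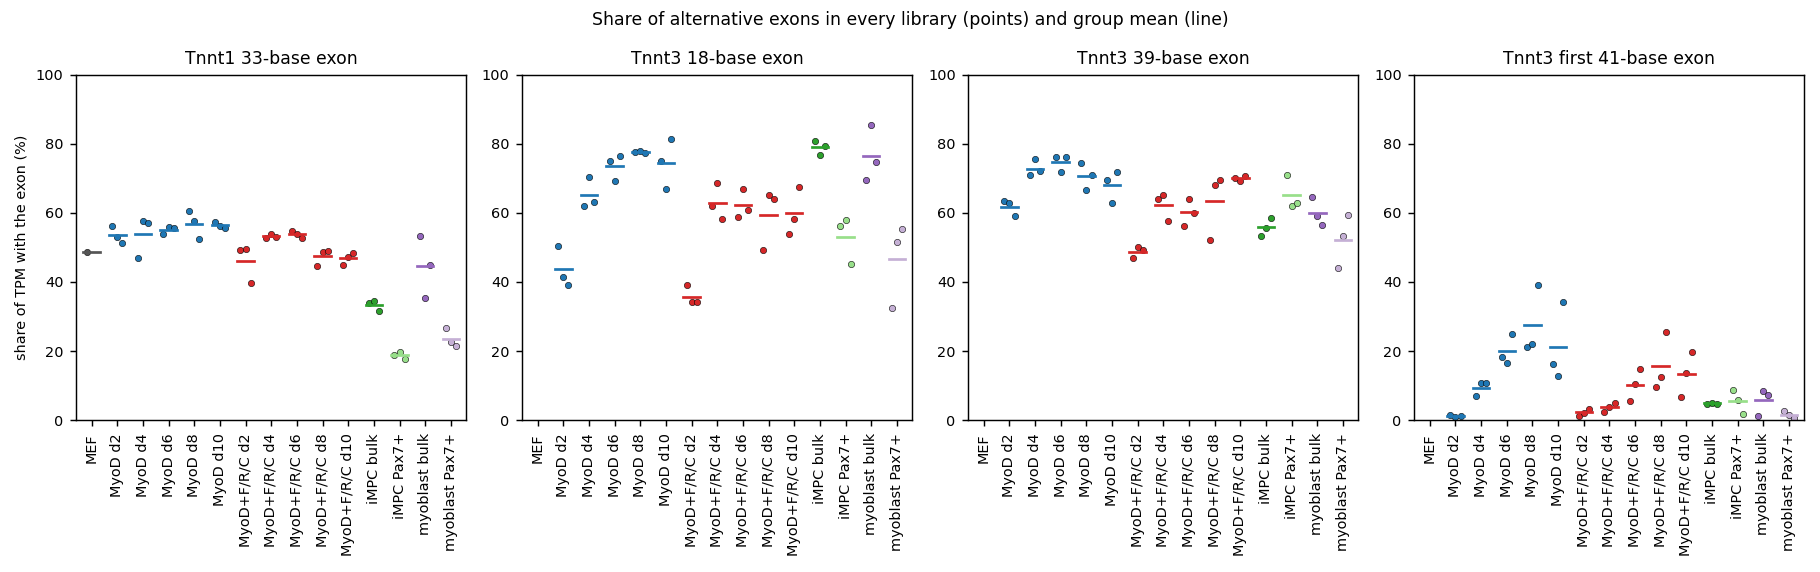
Share of TPM that holds each alternative exon of Tnnt1 and Tnnt3, in percent, in each library (points) and as the group mean (lines), 1 panel per exon. With F/R/C the 18-base exon of Tnnt3 lies lower than with MyoD alone by 10.8 points on average, and the first 41-base exon is near the bottom of its panel on day 2 in both arms and higher on day 8.

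Genes that work with or beside the troponins were counted from fixed lists, without a set test. On day 10 of MyoD alone against MEFs, 11 of 13 thin filament genes were called higher and 0 lower (median log2 fold change 7.67, against 0.01 for all genes, of which 18.9% were called), from Tpm2, a tropomyosin, at 1.99 ± 0.42 to Lmod2, a leiomodin that lengthens thin filaments, at 10.83 ± 1.11. Fast fibre genes gave 10 of 11 higher (median 7.71), from Myh1 at 5.24 ± 1.05 to Myh2 at 11.79 ± 1.45, both fast myosin heavy chains. Slow fibre genes gave 9 of 10 higher (median 9.13), from the calcium pump gene Atp2a2 at 1.35 ± 0.26 to the slow myosin Myh7 at 11.11 ± 1.25. Of 11 cardiac genes tested, 4 were higher and 1 lower (median 0.64), with the atrial myosin Myh6 at 9.60 ± 2.30 and the transcription factor Tbx5 at -2.26 ± 0.77 (not called without MEF replicate 1, at -1.55, or without replicate 1 or 2 of day 10, at -2.05 and -2.10). Of 11 regulators of troponin T splicing, 4 were higher and 1 lower (median 0.16), with Rbfox1 at 9.17 ± 0.91 and Mbnl3 at -1.15 ± 0.39, which was at -0.37 without MEF replicate 1 and was not called without any 1 library of day 10. The differentiated muscle list had 10 of 10 higher. When only these groups were fitted, Myh1, Myh6 and Mbnl3 were not called (adjusted p = 0.057, 0.054 and 0.17 in edgeR's test), nor were Actc1 of the thin filament list and Myh3 of the differentiated muscle list (0.066 and 0.071), with nearly the same fold changes.

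Between the arms, averaged over days, 22.1% of all genes were called. Fast fibre genes gave 7 of 11 higher with F/R/C and 0 lower (median 2.03, against -0.03 for all genes), from Myh2 at 1.09 ± 0.32 to Pvalb, a calcium buffer of fast fibres, at 5.38 ± 0.47. Thin filament genes gave 1 higher, Tmod4 at 2.82 ± 0.49, and 1 lower, Nebl at -1.12 ± 0.34, of 13 (median -0.07), and Nebl was smaller in size than the limit of 1 on the log2 scale, down to -0.96, and not called, without replicate 3 of F/R/C on day 4, 6, 8 or 10. Slow fibre genes gave 1 higher, Pln at 4.84 ± 0.61, and 2 lower of 10, the lowest being Myl3 at -2.80 ± 0.39 (median -0.18), and the count of higher genes was above 1 (at most 3) in 32 of 36 alternatives. The other lower gene, Myl2 (named after its value was seen), was not called without replicate 1 or 3 of day 2, replicate 2 of day 8 or replicate 2 of day 10 of MyoD alone (-1.61 to -1.33). Cardiac genes gave 2 higher and 0 lower of 11 tested, Nppa at 2.47 ± 0.77 (2.12, with an SE of 215, and not called without replicate 1 of F/R/C on day 2) and Myh6 at 1.85 ± 0.45 (median -0.12). These 2 of 11 are near the share of all genes. On day 8, when Tnni3 was highest, 1 cardiac gene of 11 tested, Nppa, was called higher and 0 lower (median 0.10), and the summed level of the list was 2560.0 CPM with MyoD alone and 1768 CPM with F/R/C. Splicing regulators gave 2 higher and 1 lower of 11 (median 0.08), with Mbnl3 at 2.15 ± 0.18 and Rbfox1 at -1.17 ± 0.25, a number of calls near the share of all genes. The differentiated muscle list gave 0 calls of 10 (median 0.01).

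In the sorted Pax7+ iMPCs against bulk iMPCs, 11 of 13 thin filament genes (median -4.11), 11 of 11 fast genes (median -4.94) and 9 of 10 slow genes (median -3.71) were called lower, where 30.3% of all genes were called in either direction. The 4 cardiac genes of 11 tested that were called were lower (median -1.78), and of 11 splicing regulators 1 was higher (Ptbp1) and 3 lower (Mbnl3, Rbfox1 and Rbm24), so 4 of 11 in each list is near that share. In bulk iMPCs against F/R/C on day 10, 0 of 13 thin filament genes and 2 of 11 fast genes (Casq1 and Pvalb, higher) were called, where 9.57% of all genes were. Of 10 slow genes 2 were lower, Myl3 at -7.60 ± 1.18 and Sln at -2.15 ± 0.69, and 0 higher. Of 11 cardiac genes tested 2 were lower, Myh6 at -4.57 ± 1.12 and Tbx5 at -2.79 ± 0.81, and 0 higher. Among 11 splicing regulators 1, Mbnl3, was lower.

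The genes whose pattern was most like each troponin were taken by Pearson's r over the 15 group means of log2 CPM, which share their libraries and the contrast of muscle cells with MEFs. For Tnnt1 they were Frmpd1 (r = 0.992), Mrln (0.987) and Actc1 (0.982), for Tnnt2 Mymk (0.996), Mybph (0.991) and Lzts1 (0.990), and for Tnnt3 Mylpf (0.993), Ttn (0.989) and Myh3 (0.988). Tnni1 was closest to Smyd1 (0.996), Myom3 (0.995) and Hfe2 (0.992). Tnni2 and Tnnc2 were both closest to Actn2 (0.995 and 0.997) and Nav2 (0.992 for each), followed by Alpk3 (0.989) for Tnni2 and Myl1 (0.989) for Tnnc2. Tnnc1 was closest to Myl4 (0.989), Srl (0.989) and Cox8b (0.987). Tnni3 had no close match, the highest being Rtl9 (0.905), Tnfaip8l1 (0.903) and Plppr3 (0.896). Among the troponins themselves r ran from 0.922 to 0.997, the highest for the fast pair Tnni2 and Tnnc2, except for Tnni3, whose r with the others lay between -0.228 and -0.125.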

How the data were processed

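Bulk RNA-seq of 45 libraries in 15 groups of 3 was analysed, with groups taken from the labels. Per the labels' protocols, libraries were stranded, poly-A selected and sequenced from a single end with 100-base reads. The submitters' processing notes name bcl2fastq 2.19, Trimmomatic 0.36, kallisto 0.44, edgeR 3.28 and build GRCm38.p6. The authors deposited, per transcript, an estimated count that is not normalised (reads shared by transcripts are split among them) and a TPM value, which is scaled to length and a fixed sum and keeps no depth. Effective lengths differed from lengths by 152.81 bases in unsorted and 180.03 bases in the 6 sorted libraries.

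Of 121843 transcripts, 121104 matched GENCODE M21 (GRCm38), holding 99.4% to 99.8% of reads. Estimated counts and TPM were summed per gene, and counts were rounded. All 45 libraries were fitted in 1 edgeR 4.0.16 model (TMM, filterByExpr, quasi-likelihood test, 30 residual degrees of freedom, no replicate block, R 4.3.3). Each standard error is the absolute log2 fold change over the square root of F. Alternatives used DESeq2 1.42.0, other scaling, no filter, no minimum fold change, only the groups compared, a replicate block and fits without each library. The gene-wise fit was run on simulated counts that had the same spread for all genes and no outlying libraries. This is simpler than these data and does not show how the fit handles such libraries. Ratios of scaled reads carry exact binomial 95% intervals. Ratios between members and transcript shares were tested by permutation within days, and the differences between days other than day 10 minus day 2 were added after the values were seen.

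The members, gene lists and tests were chosen with earlier results of these data known. All 8 troponins are named throughout. For the thin filament, fast, slow, cardiac and splicing lists, the text names the called genes with the highest and lowest log2 fold change in 2 comparisons. These are day 10 of MyoD alone against MEFs and the average of F/R/C against MyoD alone. For the fibroblast list this was done in the average only. Other list genes named in the text fall outside this rule. For each troponin the 3 genes of most similar pattern are named. Same-numbered libraries deviated together (correlation above 0.1 in every pair) between the arms on days 2, 4 and 6 and between days 10 and 2 of MyoD alone, and not in every pair of the other comparisons, and no label says what a number marks.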

Additional observations from a re-analysis of the deposited data

How the results depend on the processing

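Of 152 values (8 genes in 19 comparisons), 55 were called. Of 680 alternative values of called results 0 changed sign and 21 lost the call, and of 1377 of the others 72 changed sign, none of them called, and 7 gained a call. Fitting only the groups compared gave 2 calls for F/R/C against MyoD alone on day 2, 0 on day 4, 2 for day 10 against day 2 with F/R/C, and 0 for bulk iMPCs against bulk myoblasts, and the model without a filter gave 0 on day 2. Leaving out each library gave 0 to 1 calls on days 2 and 4, for bulk iMPCs against F/R/C on day 10 and against bulk myoblasts, and for Pax7+ against bulk myoblasts, and 2 to 4 for Pax7+ iMPCs against Pax7+ myoblasts. Leaving out each replicate number gave -0.012 (without replicate 2, reversed) to 0.10 for Tnnt3 to Tnnt1, 0.34 to 0.40 for Tnni2 to Tnni1, 0 to 3 Tnnt3 transcripts, and -8.08 to -5.95 points for the first 41-base exon of Tnnt3. The causes were not tested. Genes without a minimum fold change were called in 8.09% to 61.5% of all tested, against 4.93% to 35.5%.

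With same-numbered replicates as a block, 0 calls were lost or gained in the 19 comparisons (1 of 8 on each day of F/R/C against MyoD alone). Depth limits Tnni3, at most 59 reads a library, and the MEF levels of 7 genes in replicates 2 and 3, at most 8 reads each except Tnnc1.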
